A study of Sus scrofa with 11 samples.

Results

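The genes described here are the cytokines, chemokines and their receptors of the pig heart, on 117 of the 27558 probe sets of a whole-transcript array. A probe set was a member when its only gene symbol was IL followed by a digit, CCR followed by a digit, or began with CCL, CXCL, CXCR, TNFSF, TNFRSF, IFNAR or IFNGR. These 117 probe sets stood for 110 of the 12218 genes named on the array. The 60 ligand genes had 64 probe sets and the 48 receptor genes had 50. The remaining 3 probe sets measured IL18BP, a secreted protein that binds IL-18, and IL4I1, a secreted amino acid oxidase that carries an interleukin name.

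The tissue was the ischemic zone of the left ventricle of male Yorkshire swine. Every pig, controls included, carried an ameroid constrictor on the left circumflex coronary artery, a ring that slowly narrows the vessel. The HFD+EV group (3 arrays) ate a high fat diet for 12 weeks and had extracellular vesicles, membrane particles shed by cells, injected into the heart muscle, and the HFD group (2 arrays) ate that diet and received vehicle. The ND+EV (3 arrays) and ND (3 arrays) groups ate a normal diet and received vesicles or vehicle. Tissue was taken 5 weeks after the injection. The cells that made the vesicles are not named in the labels, and since all pigs carried the constrictor, no group shows the heart without it. The titles call the arrays of a group biological replicates, but no label ties an array to an animal, so p-values measure the spread between these arrays.

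Cytokines are small secreted proteins that act at low concentration through receptors on the surface of other cells. Chemokines are cytokines that draw leukocytes along a gradient through G protein-coupled receptors, whereas most interleukin receptors signal through JAK kinases and STAT factors. Receptors for tumour necrosis factor and IL-1 pass their signal mainly to NF-kB. In the ischemic heart these proteins are known for recruiting neutrophils, monocytes and lymphocytes and for acting on fibroblasts and endothelium.

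All values are the log2 signals that the authors deposited, and a log2 fold change is a difference between group means of these values. Probe sets bind with different strength, so signals are compared between arrays and never between genes. Probe sets in the lowest 25% by mean signal (below 3.63) were left out of the tests. Of the 110 member genes, 76 remained (83 probe sets), with 40 of 60 ligands, 34 of 48 receptors and both other genes. All 11 TNF receptor family genes passed, as did 15 of 18 CC chemokines, 7 of 8 CXC chemokines, 18 of 28 interleukin receptors and 4 of 8 chemokine receptors. The interleukins had the lowest share of tested genes after the chemokine receptors, with 15 of 29. A gene with several probe sets is represented by the one with the highest mean signal.

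The array medians lay between 4.36 and 4.48. ND replicates 1 and 3 stood apart, with mean correlations to the other arrays of 0.946 and 0.952 against 0.965 to 0.972 for the others. They also had the smallest spread of log2 signal over probe sets (SD 1.45 and 1.47, against 1.5 to 1.62 for the others). The heart muscle markers MYH7 (12.07 to 12.70) and MYL2 (12.40 to 13.22) were bright on every array. In bulk tissue, fewer cells of a type and less RNA per cell cannot be told apart.

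Each comparison was tested with limma, and p-values were adjusted over all 20668 probe sets tested. No member passed an adjusted p of 0.05 in any of the 5 comparisons or in the test across the 4 groups. In HFD+EV against HFD the share of all probe sets called was 0%, and it was also 0% in ND+EV against ND, in the difference of the EV effects, in HFD+EV against ND+EV and across the 4 groups. Only HFD against ND had calls, for 152 probe sets or 0.735% of those tested, and 0 members were among them. With any 1 array left out that number lay between 0 and 1356 and never within 1.5 times of 152. Among members, CXCR4 then passed without ND replicate 2 (limma adjusted p = 0.0426) and IL10RA without HFD+EV replicate 1 (0.0481), each in HFD against ND. At an unadjusted p under 0.05 the 5 comparisons held between 4 and 19 of the 76 genes. Where groups are said below not to overlap, this only describes the arrays of genes named mostly for a small p. The share of all probe sets without overlap was not counted.

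HFD against ND was the comparison in which most members differed at an unadjusted p under 0.05. Receptors made up most of the higher genes and ligands most of the lower ones. Of the 76 genes tested, 11 were higher at that level, against 13.6% of all probe sets, and 8 were lower, against 10.4%. The 11 higher genes were 9 receptors and the ligands CXCL12 and CCL21. The 8 lower genes were 5 ligands, 2 receptors and IL4I1. The count of 19 over both directions was 10 without HFD replicate 2 and 8 without both ND replicates 1 and 3. These shares are near those over all probe sets and are no result about the members as a whole.

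CXCR4, the receptor that holds progenitors and leukocytes near CXCL12, had log2 signals of 4.71 and 5.42 in HFD, against 4.26, 4.39 and 4.13 in ND. Both HFD arrays lay above all ND arrays, and HFD replicate 2 was the highest of all 11. Its log2 fold change was 0.81 (SE 0.19, limma adjusted p = 0.0632), the smallest adjusted p of any member, and it was 0.45 without HFD replicate 2. Its ligand CXCL12 had signals of 5.25 and 5.15 in HFD, against 4.93, 4.75 and 4.71 in ND. Here too the groups did not overlap (log2 fold change 0.41, SE 0.12, limma adjusted p = 0.0935). Without both ND replicates 1 and 3 the fold changes were 0.68 for CXCR4 and 0.45 for CXCL12.

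IL10RA, the chain of the IL-10 receptor that binds the ligand, stood at 6.54 and 6.65 in HFD, against 5.64, 5.94 and 6.09 in ND. Both HFD arrays lay above every array of the other 3 groups. The log2 fold change was 0.70 (SE 0.17, limma adjusted p = 0.0647). It ranged from 0.58 to 0.80 when any 1 array was left out and was 0.65 without ND replicates 1 and 3. IL10 itself, an anti-inflammatory cytokine, was on the other side, with 3.57 and 3.78 in HFD against 4.31, 3.82 and 4.09 in ND (log2 fold change -0.40, limma adjusted p = 0.252).

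IL4R and IL13RA1 together form a receptor for IL-4 and IL-13. IL4R had 5.91 and 6.26 in HFD, against 5.27, 5.64 and 5.68 in ND, with a log2 fold change of 0.56 (SE 0.20, limma adjusted p = 0.127). IL13RA1 had 6.79 and 7.06 in HFD, against 6.38, 6.42 and 5.55 in ND, with a log2 fold change of 0.81 (SE 0.32, limma adjusted p = 0.161). Neither pair of groups overlapped. The value of IL13RA1 rested partly on the low ND replicate 3 and was 0.52 without it. IL13, a ligand of this pair made by type 2 lymphocytes, had 3.32 and 3.50 in HFD, against 3.89, 3.67 and 3.66 in ND (log2 fold change -0.33, limma adjusted p = 0.165). The signals of IL13 lay close to the filter on low signal.

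Among receptors of the IL-6 family, IL6ST and IL11RA had a higher mean in HFD than in ND. OSMR and CNTFR, outside the member rule, had a lower one (log2 fold changes -0.13 and -0.07). IL6ST, the gp130 chain shared by the family, had 8.27 and 8.5 in HFD, against 8.22, 7.90 and 7.52 in ND (log2 fold change 0.51, limma adjusted p = 0.157). After cyclic loess normalization between arrays that fold change was 0.12, and it was 0.33 without ND replicate 3. IL11RA, which binds IL-11, had 6.93 and 6.56 in HFD, against 6.04, 6.37 and 6.57 in ND, so that the groups overlapped (0.42, limma adjusted p = 0.188). It was 0.24 without HFD replicate 1. For the ligand IL6 the groups overlapped too, with 4.0 and 3.65 in HFD against 4.28, 3.97 and 3.71 in ND.

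TNFRSF1A, the main receptor for tumour necrosis factor on tissue cells, had 6.25 and 6.75 in HFD, against 5.79, 6.04 and 6.26 in ND. HFD replicate 2 was above all ND arrays and HFD replicate 1 lay within their range. The log2 fold change was 0.48 (SE 0.19, limma adjusted p = 0.16) and 0.23 without HFD replicate 2. IFNGR1, the interferon gamma receptor chain that binds the ligand, had 6.07 and 6.61 in HFD, against 5.78, 6.16 and 5.11 in ND. Its log2 fold change of 0.66 (limma adjusted p = 0.188) was 0.37 without ND replicate 3 and 0.18 without both ND replicates 1 and 3. IL1R1, the signalling receptor for IL-1, had 4.56 and 4.70 in HFD, against 4.41, 4.24 and 4.18 in ND, without overlap (0.35, limma adjusted p = 0.163).

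Among receptors with lower signal in HFD, IL20RB, a chain of the receptors for IL-20 family cytokines, had 3.78 and 3.92, against 4.42, 4.10 and 4.19 in ND (log2 fold change -0.39, limma adjusted p = 0.118; -0.25 without ND replicates 1 and 3). IL22RA2, a soluble decoy that binds IL-22, had 3.75 and 3.74 in HFD, against 4.17, 4.12 and 4.04 in ND (-0.36, limma adjusted p = 0.14). Its ligand IL22, a lymphocyte cytokine that acts on epithelium, had 4.48 and 4.23 in HFD, against 5.05, 5.01 and 4.83 in ND. That was a log2 fold change of -0.61 (SE 0.18, limma adjusted p = 0.0933), with no overlap between the groups. Decoy and ligand thus had the same sign.

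**Figure D1:**
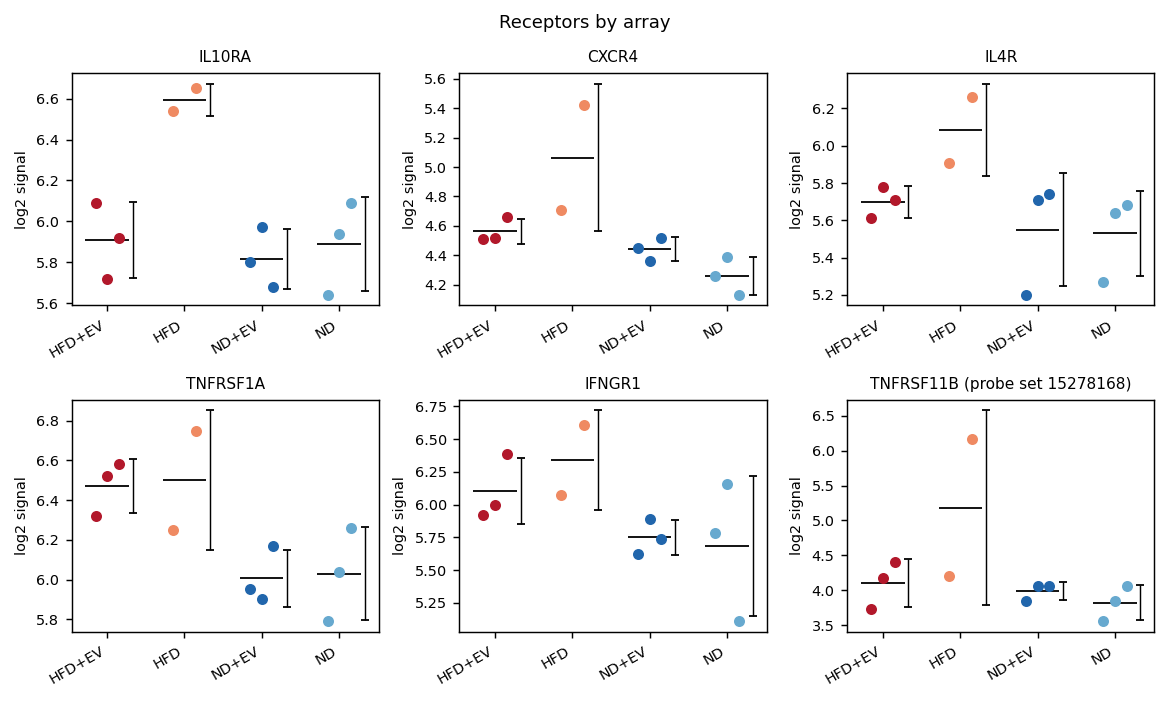
Log2 signal (vertical axis, a separate range in each panel) of 6 receptors by group, with 1 point per array, the group mean as a line and its SD as a bar to the right (n = 3, and n = 2 in HFD). IL10RA lies at 6.54 and 6.65 in HFD, above all other arrays, and the HFD means of CXCR4 and of this TNFRSF11B probe set are set by HFD replicate 2 at 5.42 and 6.17.

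The ligand CCL19, which guides T cells and dendritic cells through CCR7, had the smallest p of the ligands in HFD against ND. Its signals were 3.96 and 4.01 in HFD, against 4.56, 4.41 and 4.43 in ND, with a log2 fold change of -0.49 (SE 0.13, limma adjusted p = 0.0787). CCL21, the other CCR7 ligand, had the opposite sign, with 4.81 and 4.59 in HFD against 4.27, 4.40 and 4.53 in ND (0.30, limma adjusted p = 0.192, and 0.19 without HFD replicate 1). CCR7 itself overlapped between the groups, at 4.65 and 5.07 in HFD against 4.47, 4.97 and 4.39 in ND. IL23A, the subunit that is specific to IL-23, had 4.89 and 5.11 in HFD, against 5.59, 5.53 and 5.28 in ND (-0.47, limma adjusted p = 0.188).

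CXCL2, a chemokine that draws neutrophils, was measured by 4 probe sets under 2 gene IDs, and which locus each reports is uncertain. The probe set with the highest mean signal (15292014, with values identical to those of 15323275) had 6.24 and 5.81 in HFD, against 6.60, 6.54 and 6.56 in ND. It had a log2 fold change of -0.54 (limma adjusted p = 0.189) and -0.33 without HFD replicate 2. The other 2 probe sets gave -0.46 and -0.42, so all had the same sign in this comparison, and the value of -0.42 (15320856) was -0.24 without HFD replicate 2 and -0.63 without ND replicate 3. IL4I1 had 3.86 and 4.05 in HFD, against 4.91, 4.62 and 4.41 in ND, without overlap (-0.69, SE 0.17, limma adjusted p = 0.0663).

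**Figure D2:**
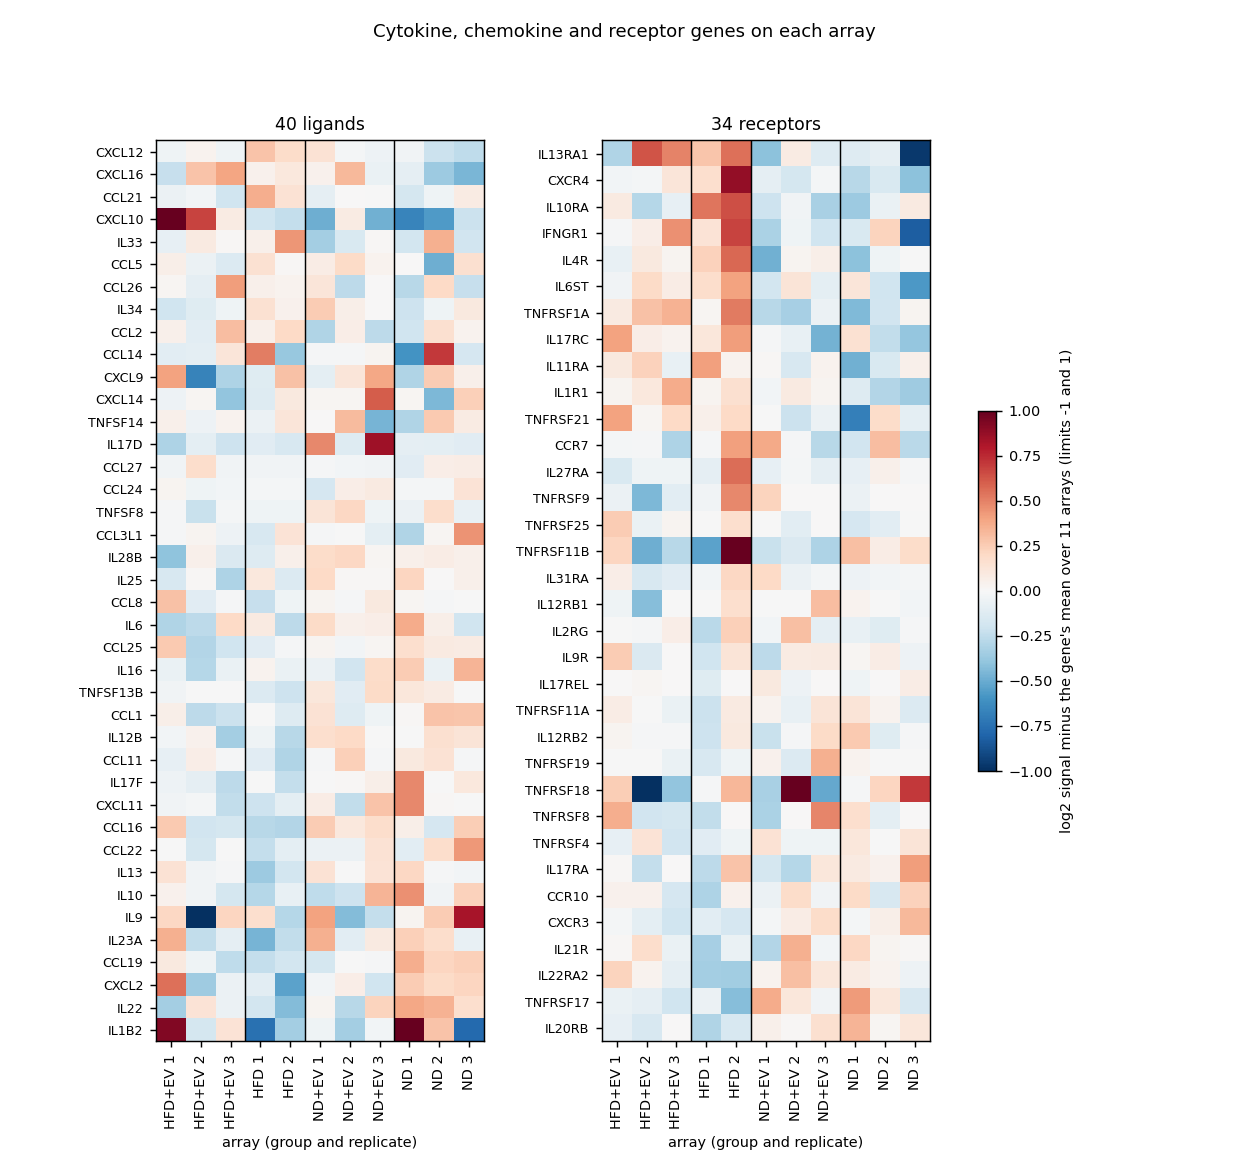
Log2 signal of each gene minus its mean over the 11 arrays (colour, from -1 in blue to 1 in red) for 40 ligands and 34 receptors, ordered by HFD minus ND, with 1 column per array and black lines between the groups. HFD replicate 2 has the highest signal of all arrays for 12 of the 34 receptors and for 1 of the 40 ligands.

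Taking all tested genes by class, 19 of 34 receptors and 13 of 40 ligands had a higher mean in HFD than in ND. So had 47.5% of all probe sets, and 31.9% of those below the median mean signal. Whether a class or family departs from these shares was not tested. The median log2 fold change was 0.099 for receptors and -0.123 for ligands, against -0.022 for all probe sets. Interleukins were the most one-sided family, with 2 higher and 13 lower and a median of -0.25. IL33, an alarmin of stromal cells, and IL34, a ligand of the macrophage receptor CSF1R, were the 2 that were higher (0.25 and 0.14). IL33 had 0.06 without HFD replicate 2. Interleukin receptors had 11 higher and 7 lower, CC chemokines 5 higher and 10 lower, CXC chemokines 5 higher and 2 lower, and TNF receptor family genes 5 higher and 6 lower.

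These medians moved with signal strength and with 1 array. Across all probe sets the fold change of HFD against ND correlated with mean signal (r = 0.337 over 20668 probe sets that share the same arrays). Below the median mean signal of 4.95, the median fold change was -0.166 for 30 ligands, -0.073 for 19 receptors and -0.114 for all probe sets. Above it, the medians were 0.015 for 10 ligands, 0.421 for 15 receptors and 0.144 for all probe sets. Most ligands lay below that median of signal, where fold changes of all probe sets ran negative. On both sides of it the ligand median was below that of all probe sets, and the receptor median above. HFD replicate 2 gave the highest value of all arrays for 12 receptors (35.3%), against 12.6% of all probe sets. Without that array the receptor median was -0.106, and without HFD replicate 1 it was 0.240. The part of signal strength in the ligand and receptor values, and that of this array in the receptor values, was not tested further.

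**Figure D3:**
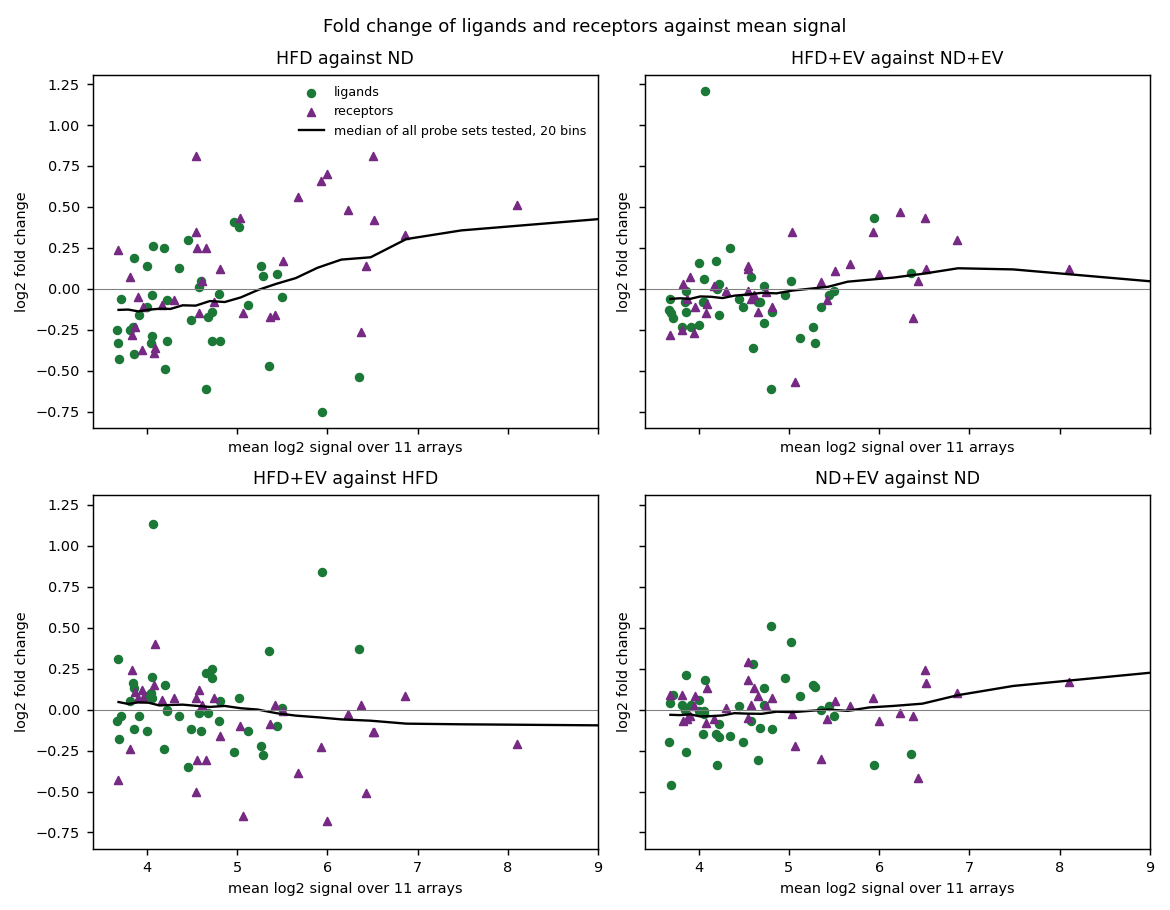
Log2 fold change (vertical axis) against mean log2 signal over 11 arrays (horizontal axis) for ligands (circles) and receptors (triangles) in 4 comparisons, with a line for the median of all tested probe sets in 20 bins of mean signal. In HFD against ND the line climbs with signal (r = 0.337), and the receptors above it on the right include IL10RA at 0.70 and IL13RA1 at 0.81.

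HFD+EV against HFD asked what the vesicles did under the high fat diet. Of the representative probe sets, CXCL10 had the largest fold change of the ligands, and IL10RA the smallest p of the receptors. Of the 76 genes, 3 were higher at an unadjusted p under 0.05, against 2.72% of all probe sets, and 4 were lower, against 2.82%. Without HFD replicate 2 the count over both directions was 3 in place of 7. Ligands were split evenly, with 20 higher and 20 lower, and receptors nearly so, with 16 higher and 18 lower. Of all probe sets, 49.5% were higher. The medians were -0.003 for ligands and -0.021 for receptors, against -0.002 for all probe sets.

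CXCL10, an interferon-inducible chemokine that draws CXCR3-bearing T cells, had signals of 6.07, 4.74 and 4.15 in HFD+EV, against 3.87 and 3.83 in HFD. All HFD+EV arrays lay above both HFD arrays, and replicate 1 was far above the others. The log2 fold change was 1.13 (SE 0.43, limma adjusted p = 0.894) and 0.59 without HFD+EV replicate 1. CXCL9 and CXCL11, which bind the same receptor, did not share this pattern. CXCL9 had 5.69, 4.62 and 4.98 in HFD+EV, against 5.17 and 5.58 in HFD. CXCL11 had 4.77, 4.79 and 4.56 in HFD+EV, against 4.60 and 4.71 in HFD. The receptor CXCR3 had 6.35, 6.27 and 6.17 in HFD+EV, against 6.26 and 6.20 in HFD, a difference of 0.03. Of 22 other interferon-stimulated genes tested, all had a higher mean in HFD+EV (median log2 fold change 0.68), 16 of them at an unadjusted p under 0.05 and 0 at an adjusted p of 0.05. Of all probe sets, 49.5% had a higher mean and 2.72% were higher at the unadjusted level (median -0.002). This list was chosen with earlier results of these data known.

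The CXCL2 probe set with a current gene ID (15320856) had 7.31, 5.62 and 6.18 in HFD+EV, against 5.18 and 4.81 in HFD. The groups did not overlap, and the log2 fold change was 1.38 (SE 0.49, limma adjusted p = 0.835), or 0.91 without HFD+EV replicate 1. The other CXCL2 probe set of high signal (15292014) gave 0.37, with overlapping groups. That value was 0.11 without HFD+EV replicate 1 and 0.58 without HFD replicate 1. IL1B2, a close copy of the pig IL-1 beta gene whose probes may also read IL1B, had 6.87, 5.77 and 6.08 in HFD+EV, against 5.20 and 5.60 in HFD (0.84, limma adjusted p = 0.907, and 0.53 without HFD+EV replicate 1). In the ND group IL1B2 ranged more widely, at 7.04, 6.23 and 5.17, and all HFD+EV and HFD arrays lay within that range.

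**Figure D4:**
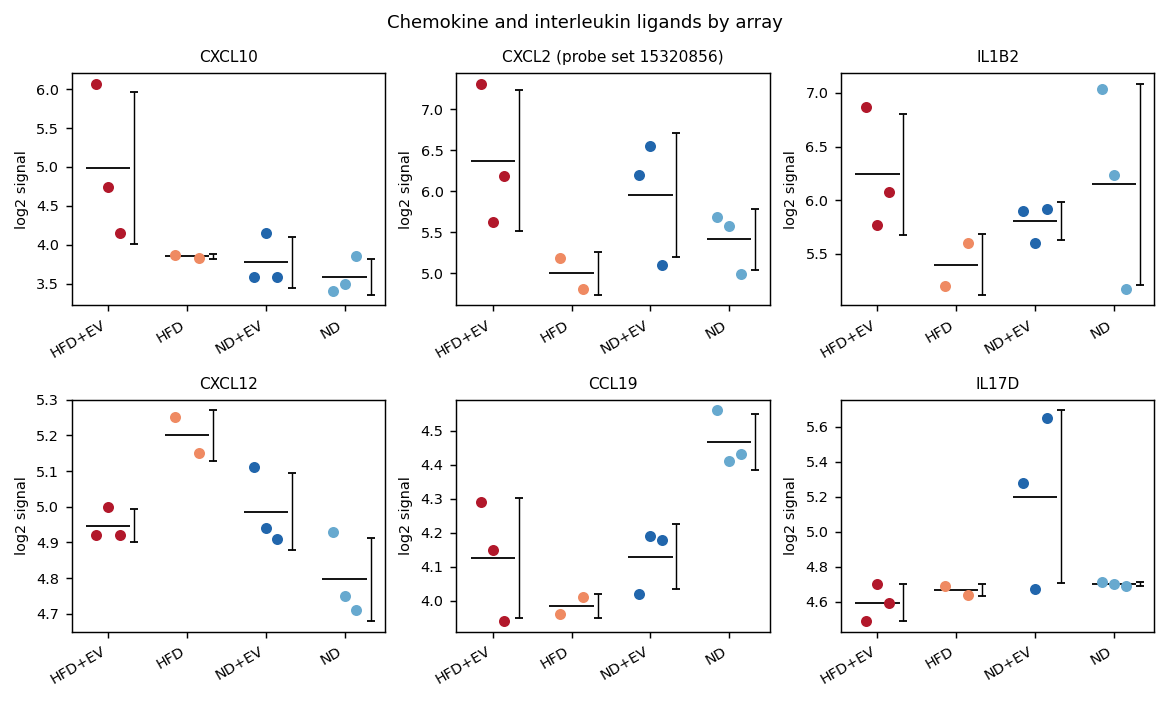
Log2 signal (vertical axis, a separate range in each panel) of 6 ligands by group, with 1 point per array, the group mean as a line and its SD as a bar to the right (n = 3, and n = 2 in HFD). CXCL10 reaches 6.07 on HFD+EV replicate 1 against 3.87 and 3.83 in HFD, and CCL19 is at 4.41 or above on all ND arrays.

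CCL21 and CXCL12, made largely by lymphatic and stromal cells, were lower in HFD+EV than in HFD. CCL21 had 4.39, 4.42 and 4.25 in HFD+EV, against 4.81 and 4.59 in HFD (-0.35, limma adjusted p = 0.888, and -0.23 without HFD replicate 1). CXCL12 had 4.92, 5.0 and 4.92 in HFD+EV, against 5.25 and 5.15 in HFD (-0.26, limma adjusted p = 0.904). Neither gene's groups overlapped. IL13 had 3.83, 3.65 and 3.67 in HFD+EV, against 3.32 and 3.50 in HFD (0.31, limma adjusted p = 0.895).

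IL10RA had 6.09, 5.72 and 5.92 in HFD+EV, against 6.54 and 6.65 in HFD. The log2 fold change was -0.68 (SE 0.17, limma adjusted p = 0.564), between -0.77 and -0.59 with any 1 array left out. CXCR4 had 4.51, 4.52 and 4.66 in HFD+EV, against 4.71 and 5.42 in HFD (-0.50, limma adjusted p = 0.877). Without HFD replicate 2 its value was -0.15. TNFRSF9, a costimulatory receptor of activated T cells, had 3.62, 3.23 and 3.57 in HFD+EV, against 3.64 and 4.16 in HFD (-0.43, limma adjusted p = 0.895, and -0.17 without HFD replicate 2). Its HFD+EV signals lay below the mean signal of 3.63 that the filter required. IL4R had 5.61, 5.78 and 5.71 in HFD+EV, against 5.91 and 6.26 in HFD (-0.39, limma adjusted p = 0.904, and -0.21 without HFD replicate 2). IL22RA2 was on the other side, with 4.31, 4.12 and 4.0 in HFD+EV, against 3.75 and 3.74 in HFD (0.40, limma adjusted p = 0.777). The HFD arrays are in both HFD+EV against HFD and HFD against ND, so the opposite signs of IL10RA, CXCR4, IL4R and IL22RA2 in these comparisons share those 2 arrays.

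TNFRSF11B, or osteoprotegerin, is a soluble decoy for TNFSF11 and TNFSF10, and its 2 probe sets were dominated by 1 array. Probe set 15278168 had 3.73, 4.18 and 4.41 in HFD+EV, against 4.20 and 6.17 in HFD. Its log2 fold change of -1.08 (limma adjusted p = 0.895) was -0.09 without HFD replicate 2. Probe set 15282964 had 6.65, 5.95 and 6.16 in HFD+EV, against 5.90 and 7.63 in HFD, a log2 fold change of -0.51 that was 0.35 without HFD replicate 2.

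ND+EV against ND asked what the vesicles did under the normal diet. Of 76 genes, 3 were higher at an unadjusted p under 0.05, against 4.97% of all probe sets, and 1 was lower, against 3.54%. The count of 4 was 0 without ND+EV replicate 1, 1 without ND replicate 2, and 2 without any 1 of ND replicates 1 and 3, ND+EV replicate 2 and HFD+EV replicate 2. The medians were -0.006 for ligands (19 higher, 21 lower) and 0.024 for receptors (20 higher, 14 lower), against -0.005 for all probe sets (49.2% higher).

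CCL19 had 4.02, 4.19 and 4.18 in ND+EV, against 4.56, 4.41 and 4.43 in ND. The groups did not overlap (log2 fold change -0.34, SE 0.12, limma adjusted p = 0.548). IL17D, an IL-17 family cytokine, had 5.28, 4.67 and 5.65 in ND+EV, against 4.71, 4.70 and 4.69 in ND. Replicates 1 and 3 of ND+EV were the highest of all 11 arrays, while replicate 2 was at the ND level (0.51, limma adjusted p = 0.57). Without ND+EV replicate 3 the fold change was 0.28.

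CXCL16, a membrane-bound chemokine that is the ligand of CXCR6, had 5.06, 5.34 and 4.95 in ND+EV, against 4.92, 4.65 and 4.56 in ND (0.41, limma adjusted p = 0.58). IL1R1 had 4.51, 4.63 and 4.56 in ND+EV, against 4.41, 4.24 and 4.18 in ND (0.29, limma adjusted p = 0.58). In both genes all ND+EV arrays were above all ND arrays. IL22 had 4.69, 4.38 and 4.88 in ND+EV, against 5.05, 5.01 and 4.83 in ND, with overlap (-0.31, limma adjusted p = 0.628, and -0.18 without ND+EV replicate 2). IL17RA, the chain shared by IL-17 receptors, also overlapped, with 5.18, 5.07 and 5.47 in ND+EV against 5.45, 5.40 and 5.78 in ND. The representative TNFRSF11B probe set had a fold change of -0.42 and CXCR4 one of 0.18. Without both ND replicates 1 and 3 CXCR4 had 0.05 and IL17RA -0.16 in place of -0.30. IL17RA had -0.19 without ND replicate 3 alone.

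The difference between the vesicle effects of both diets, taken as (HFD+EV - HFD) - (ND+EV - ND), asked whether the vesicles acted differently under the diets. Of 76 genes, 1 was positive at an unadjusted p under 0.05, against 3.87% of all probe sets, and 3 were negative, against 4.55%. Their count of 4 was 7 without HFD+EV replicate 1 and 9 without ND replicate 3. The positive gene was CCL19 (0.49, SE 0.18, limma adjusted p = 0.572), with an EV effect of 0.15 (0.07 without HFD+EV replicate 1) under the high fat diet and -0.34 under the normal diet. The negative genes were CXCL12, CXCR4 and IL10RA. CXCL12 had EV effects of -0.26 under the high fat diet and 0.19 under the normal diet (difference -0.45, limma adjusted p = 0.572). CXCR4 had -0.50 and 0.18 in that order (-0.68, limma adjusted p = 0.572), and -0.33 without HFD replicate 2. IL10RA had -0.68 and -0.07 (-0.61, limma adjusted p = 0.572).

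Further differences with a small p were those of IL22 (0.53), CCL21 (-0.36), TNFRSF9 (-0.52) and IL4R (-0.41), with limma adjusted p between 0.59 and 0.666. Without HFD replicate 2 TNFRSF9 had -0.26 and IL4R -0.24, and without HFD replicate 1 TNFRSF9 had -0.78. IL1B2 had the largest difference among the tested genes at 1.18 (SE 0.62, limma adjusted p = 0.617), which was 0.73 without ND replicate 1. By class, 26 of 40 ligands and 13 of 34 receptors had a positive difference, with medians of 0.094 and -0.068 against 0.001 for all probe sets. The ligand median was 0.035 without HFD+EV replicate 1, and the receptor median was 0.045 without HFD replicate 2. CC chemokines had 12 positive and 3 negative differences, and interleukin receptors 7 and 11. Of all probe sets 50.2% had a positive difference, and 59.4% of those below the median mean signal. Whether a class or family departs from these shares was not tested.

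HFD+EV against ND+EV asked what the diet did when vesicles were given, on arrays that HFD against ND did not use. Of 76 genes, 2 were higher at an unadjusted p under 0.05, against 4.14% of all probe sets, and 2 were lower, against 3.23%. The count of 4 was 2 without HFD+EV replicate 3, ND+EV replicate 1 or ND+EV replicate 2. CXCL10 had 6.07, 4.74 and 4.15 in HFD+EV, against 3.58, 4.15 and 3.59 in ND+EV. This log2 fold change was 1.21 (SE 0.39, limma adjusted p = 0.593), or 0.67 without HFD+EV replicate 1. TNFRSF1A had 6.32, 6.52 and 6.58 in HFD+EV, against 5.95, 5.90 and 6.17 in ND+EV, without overlap (0.47, SE 0.17, limma adjusted p = 0.613). Its fold change was 0.48 in HFD against ND.

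IL17D had 4.49, 4.70 and 4.59 in HFD+EV, against 5.28, 4.67 and 5.65 in ND+EV (-0.61, limma adjusted p = 0.596, and -0.39 without ND+EV replicate 3). IL28B, a type III interferon, had 4.72, 5.17 and 4.98 in HFD+EV, against 5.31, 5.33 and 5.14 in ND+EV (-0.30, limma adjusted p = 0.663, and -0.19 without HFD+EV replicate 1). IL34 had 5.07, 5.15 and 5.23 in HFD+EV, against 5.52, 5.33 and 5.27 in ND+EV (-0.23, limma adjusted p = 0.715). Among receptors, IL17RC, the partner chain of IL17RA, had 0.35, IL12RB1, a chain of the IL-12 and IL-23 receptors, had -0.25, and TNFRSF9 had -0.28. Those receptors had limma adjusted p between 0.71 and 0.731. IL17RC had 0.21 without ND+EV replicate 3, and without HFD+EV replicate 2 IL12RB1 had -0.12 and TNFRSF9 -0.15.

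For receptors described in HFD against ND, the log2 fold changes in HFD+EV against ND+EV were 0.09 for IL10RA, 0.12 for CXCR4, 0.15 for IL4R and 0.12 for IL6ST. They were 0.35 for IFNGR1 (0.21 without HFD+EV replicate 3) and 0.43 for IL13RA1 (0.25 without HFD+EV replicate 2 and 0.72 without HFD+EV replicate 1). IL4R was -0.03 without ND+EV replicate 1. Whether these values differ between the diet comparisons is tested by the difference of the EV effects, which no member passed. By class, 17 of 34 receptors and 11 of 40 ligands were higher in HFD+EV than in ND+EV, with medians of 0.004 and -0.077 against -0.007 for all probe sets. Interleukins again had 2 higher and 13 lower (median -0.15), against 48.8% higher among all probe sets and 39.1% among those below the median mean signal. Fold change correlated with mean signal here too (r = 0.164). IL33 (0.17) was again higher, while IL34 was lower and IL1B2 (0.43) higher. Without 1 array IL33 had 0.07 (ND+EV replicate 1) and IL1B2 0.12 (HFD+EV replicate 1).

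Across the 4 groups without direction, 11 of 76 genes had an unadjusted p under 0.05, against 17% of all probe sets. With HFD replicate 2 left out that count was 4, and it was 6 when HFD+EV replicate 3 or both ND replicates 1 and 3 were omitted. IL10RA (limma adjusted p = 0.165), IL4I1 (0.19) and CXCR4 (0.194) had the smallest p. IL10RA averaged 5.91 ± 0.18 in HFD+EV, 6.59 ± 0.08 in HFD, 5.82 ± 0.15 in ND+EV and, with n = 3 as in the other groups but HFD (n = 2), 5.89 ± 0.23 in ND (all SD). HFD was highest, and the other 3 groups did not differ beyond their spread. CXCR4 averaged 4.56 ± 0.08 in HFD+EV, 5.07 ± 0.50 in HFD, 4.44 ± 0.08 in ND+EV and 4.26 ± 0.13 in ND, again highest in HFD. CXCL10 averaged 4.99 ± 0.98 in HFD+EV, 3.85 ± 0.02 in HFD, 3.77 ± 0.33 in ND+EV and 3.59 ± 0.23 in ND, and the 3 lower groups overlapped. CCL19 averaged 4.13 ± 0.17 in HFD+EV, 3.98 ± 0.04 in HFD, 4.13 ± 0.09 in ND+EV and 4.47 ± 0.08 in ND, highest in ND.

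Other ligands known from the ischemic heart differed less. CCL2, which draws monocytes, had 4.40, 4.25 and 4.66 in HFD+EV, against 4.40 and 4.55 in HFD. In ND+EV it had 4.05, 4.42 and 4.09, against 4.15, 4.51 and 4.39 in ND. CCL5, a chemokine of T cells and platelets, had fold changes of -0.12 in HFD+EV against HFD and 0.21 in ND+EV against ND. These were -0.05 without HFD replicate 1 and 0.02 without ND replicate 2. TNFSF13B, the B cell survival factor BAFF, had 3.81, 3.84 and 3.84 in HFD+EV, against 3.71 and 3.64 in HFD, without overlap (0.16, limma adjusted p = 0.934). In ND+EV against ND its fold change was 0.00. Its receptor TNFRSF17, found on plasma cells, had 0.12 and 0.02 in these comparisons.

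Receptors of the common gamma chain family overlapped between groups in HFD+EV against HFD and in ND+EV against ND, apart from IL4R. IL2RG, the shared chain, had 0.03 and 0.13, and IL21R, the receptor of IL-21, had 0.24 and -0.07. TNFRSF11A, the receptor of TNFSF11, had 0.07 and 0.02. Of the representative probe sets of tested genes, the widest ranges over the 11 arrays were those of CXCL10 (2.65), TNFRSF18, a costimulatory receptor of T cells (2.42), and IL9, a type 2 cytokine (1.96). For TNFRSF18 the extremes were 3.75 on HFD+EV replicate 2 and 6.16 on ND+EV replicate 2, and its groups overlapped in all 4 pairwise comparisons.

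The 34 members below the filter had mean signals of 3.62 or less and were not tested. They included CXCL8 (3.62) and CXCR2 (3.46), the main human neutrophil chemokine and its receptor, and IL18 (3.34), IL18R1 (3.15), IL1A (3.35) and IL1RL1 (3.33) of the IL-1 family. IL2, IL7, IL7R, IL15, IL4, IL5, IL17A and IL21, cytokines and a receptor of lymphocytes, were also among them, with means between 2.85 and 3.49. The others were CCL4, CCL20, CCL28, CCR9, CXCR5, CXCR6, IL12A, IL13RA2, IL17RB, IL19, IL1RAPL1, IL1RAPL2, IL20, IL20RA, IL23R, IL24, IL26, IL5RA, TNFSF4 and TNFSF11. Of these 34 genes CXCR6 varied most, over 1.3 between its lowest and highest array. No detection call was used, so a signal at this level does not say whether the gene was expressed. CCR2, IL1B, IL6R, TNFRSF1B, TNFSF10, IFNAR1 and IFNAR2 were not analysed here.

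Genes that act downstream of these receptors were taken from lists. In HFD against ND, 14 of 17 JAK-STAT genes had a higher mean (median 0.16), against 63.1% of all probe sets above the median mean signal. Of the 17, 6 (35.3%) had an unadjusted p under 0.05, all of them higher, and 0 passed after adjustment. That level was reached in either direction by 24% of all probe sets and by 31.6% of those above the median mean signal. In the higher direction alone it was reached by 13.6% of all probe sets and by 2362 of the 10334 above that median. Some listed genes, such as JAK3, lay below that median, and whether the share exceeds the background was not tested. STAT3, the factor activated by gp130 and IL-10 receptors, had 8.45 and 9.20 in HFD, against 7.34, 8.02 and 8.10 in ND (1.0, limma adjusted p = 0.0792). Of 24 genes of NF-kB and TNF or IL-1 receptor signalling, 15 (62.5%) were higher. An unadjusted p under 0.05 was reached by 7 (29.2%), all of them higher, and this share was not tested against the background either. TAB2, an adaptor of the kinase TAK1, was the only gene of these lists to pass, with 7.79 and 7.66 in HFD against 6.60, 6.73 and 6.93 in ND (0.97, limma adjusted p = 0.0492). Without HFD replicate 2 no probe set of the array passed, TAB2 included. In HFD+EV against HFD, 5 of 17 JAK-STAT genes (29.4%) and 8 of 24 NF-kB genes (33.3%) were higher, and 0 passed after adjustment. Of all probe sets 49.5% were higher, and 41.5% of those above the median mean signal. Whether the lists depart from these shares was not tested. At an unadjusted p under 0.05 there were 0 JAK-STAT genes and 2 NF-kB genes, MAP3K7 (-0.37) and TAB1 (-0.38), both lower in HFD+EV, against 5.54% of all probe sets.

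Chemokine pathway genes outside the member rule had 5 of 10 higher in HFD than in ND, and other cytokines and receptors 12 of 28. Of all probe sets, 47.5% were higher. ACKR3, the second receptor of CXCL12, had 5.57 and 6.0 in HFD, against 5.28, 5.59 and 5.54 in ND (0.31). TGFB1, a cytokine of repair and scarring, had a log2 fold change of 0.60 (limma adjusted p = 0.0787) and EDAR, a TNF receptor family member of skin appendages, -0.64 (limma adjusted p = 0.0612).

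Markers of cells that make or bear these proteins were summed as a mean deviation from each gene's mean. Fibroblast markers (7 of 8 tested) scored 0.11 and 0.81 in HFD, against -1.0, -0.32 and 0.14 in ND, and smooth muscle and pericyte markers (5 of 7) 0.14 and 0.62 in HFD, against -0.57, 0.27 and 0.10 in ND. HFD replicate 2, the array with the highest CXCR4 and TNFRSF11B, had the highest score for both. B and plasma cell markers (4 of 8 tested, among them the member TNFRSF17) scored -0.29 and -0.21 in HFD, against 0.39, -0.06 and 0.16 in ND. T cell markers (8 of 10) scored -0.10 and 0.07 in HFD, against 0.12, 0.04 and -0.04 in ND. Macrophage markers (9 of 12) scored -0.08, 0.24 and 0.28 in HFD+EV, against -0.13 and 0.11 in HFD. Within HFD+EV they were lowest on replicate 1, where CXCL10 was highest, and NK cell markers (-0.04, -0.01 and 0.07) were lowest there too. Markers of T cells (0.16, -0.12 and -0.08) and neutrophils (0.12, -0.22 and -0.20) were instead highest on that replicate. So were those of mast cells (0.26, -0.02 and -0.03) and of B and plasma cells (0.04, -0.06 and -0.13). The part of these cell types in the member values was not tested.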

How the data were processed

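RNA was measured in 11 samples, grouped by the titles. An Affymetrix whole-transcript array was hybridised from 50 ng of total RNA, per the labels' protocols. For every probe set the authors deposited 1 normalized log2 value per array. Transcriptome Analysis Console is the tool in the submitters' processing notes. How it normalized, its version and the genome build were not stated in labels or file headers, and no coordinates or sequences are printed. The number of arrays limits the precision, and no detection call was used.

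Gene symbols are those of the platform annotation and may be out of date: 13157 probe sets had 1 symbol, 523 several and 13878 none. Of 117 member probe sets, 113 matched a current gene by gene ID (0 symbols updated). The 4 without a current gene ID were 3 of CXCL2 and that of CXCR3. Probe sets with several symbols were not named, and 3 of these held a member symbol. In 2 genes (CXCL2 and IL25) probe sets shared all values.

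Probe sets whose mean signal was in the lowest 25% were left out, and 1 mean per group was fitted over all 11 arrays with limma 3.58.1 in R 4.3.3 (lmFit, eBayes). Tests were two-sided, with Benjamini-Hochberg adjustment over 20668 probe sets and a threshold of 0.05. Only the limma fit was tested on simulated data, in the pairwise comparisons and not for the difference of the EV effects or the test across groups. Genes named are, in each comparison, any member past the threshold and the 4 ligands and 4 receptors with the smallest p, and those of set ligand and receptor axes. The other probe sets of CXCL2 and TNFRSF11B, IL1B2, IL4I1, CCL21, CCR7, IL9, TNFRSF18, IL28B and the other genes at an unadjusted p under 0.05 were named after their values were seen. The members and lists were chosen with earlier results of these data known. Alternatives changed the filter, normalization, variance prior, array weights, arrays in the fit, replicate number as a block, and each array in turn.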

Additional observations from a re-analysis of the deposited data

How the results depend on the processing

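With each array left out in turn, 55 of the 76 genes kept the sign of their fold change throughout in HFD against ND, 41 in HFD+EV against HFD and 32 in ND+EV against ND. No member had passed the threshold in these comparisons. Members past the threshold numbered 0 under every alternative across the 4 groups, in the difference between EV effects, and in HFD+EV against HFD, ND+EV against ND and HFD+EV against ND+EV. In HFD against ND they numbered 0 to 1 with any 1 array left out: CXCR4 passed without ND replicate 2 (limma adjusted p = 0.0426) and IL10RA without HFD+EV replicate 1 (0.0481). The second TNFRSF11B probe set passed without HFD replicate 1 (2.34, limma adjusted p = 0.0415), which left 1 HFD array, taken to vary like the other groups.

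The count of all probe sets past the threshold in HFD against ND was 0 with no filter, cyclic loess, an intensity trend, array weights, only the groups compared, and without both ND replicates 1 and 3. With any 1 array left out it was 0 to 1356. The other counts, with any 1 array left out, were 0 to 1 in HFD+EV against HFD, 0 to 2 in ND+EV against ND, 0 to 1 for the difference of the EV effects, 0 to 2 in HFD+EV against ND+EV and 0 to 5 across the 4 groups. With array weights the last 2 were 10 and 2, and without both ND replicates 1 and 3 HFD+EV against ND+EV had 2.

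Receptor medians with the lowest 50% of probe sets left out were -0.137 in HFD+EV against HFD, -0.217 for the difference of the EV effects, 0.248 in HFD against ND and 0.095 in HFD+EV against ND+EV. With any 1 array left out they ran from -0.161 to 0.070 in HFD+EV against HFD, from -0.186 to 0.045 for the difference and from -0.106 to 0.240 in HFD against ND. Ligand medians ran from 0.035 to 0.131 for the difference (0.039 with cyclic loess) and from -0.175 to -0.118 in HFD against ND. The cause of these moves was not tested.

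Correlations of deviations between same-numbered arrays ran from -0.103 to 0.199. From groups of 2 or 3 arrays they cannot decide whether the replicate numbers pair the samples, and no label says so. With the replicate number as a block, 938 probe sets and 2 members (IL4R, limma adjusted p = 0.0441, and IL4I1, 0.0374) passed in HFD against ND, and 0 members in the other comparisons. The small number of arrays, 2 in HFD, limits every value.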
